A study of Mus musculus with 8 samples.

Results

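Estrogen acts on islet cells through a small set of receptors. The expression of 10 genes was examined in islets of aged mice with and without targeting of Igf1r in β-cells. These were Esr1, Esr2 and Gper1, which encode receptors of estrogen, Esrra, Esrrb and Esrrg, which encode the estrogen-related receptors (ERRs), and the coregulators and target genes Ppargc1a, Ppargc1b, Nrip1 and Greb1. The genes were found by gene symbol among the 53012 Ensembl identifiers of the count table, and all 10 were present. Islet RNA was sequenced in bulk from 4 βIgf1r and 4 βIgf1rKD mice, with a separate library for the islets of each mouse.

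All 8 mice were 17 months old and carried floxed Igf1r alleles (Igf1r flox/flox), in which Cre can remove an exon of the insulin-like growth factor 1 receptor gene. The βIgf1rKD mice were Ins1-CreERT2 +/−. Their treatment was tamoxifen at 0.075 mg/g of body weight, given as 5 injections that were 1 day apart. The βIgf1r mice were Ins1-CreERT2 −/− and received the corn oil vehicle. Islets were collected 7 days after the final dose. Males and females were used in both groups, and the sex of a mouse is not marked. The genotype names Ins1, whereas the methods describe Cre under a rat insulin promoter. Since Cre and tamoxifen were given only together, the deletion of Igf1r, the presence of Cre and the tamoxifen cannot be told apart in the comparison. This bears on the receptors in particular, because tamoxifen is itself a ligand of estrogen receptors and CreERT2 contains a mutated ligand-binding domain of human ERα. Every row of the table was a mouse Ensembl gene, so that the transgene had no row of its own, and the part of transgene reads in the Esr1 counts was not tested.

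ERα, encoded by Esr1, and ERβ, encoded by Esr2, are nuclear receptors that bind estradiol and regulate genes from estrogen response elements, and GPER, encoded by Gper1, is a membrane receptor through which estrogens signal rapidly. Estrogen protects β-cells from apoptosis and supports insulin synthesis in rodents. The ERRs share the DNA-binding domain of the family but bind no estrogen. With the coactivators PGC-1α and PGC-1β they drive genes of mitochondrial respiration, and ERRγ, encoded by Esrrg, is known for its part in the metabolic maturation of β-cells.

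The libraries held 21633925 to 31202015 counts for βIgf1r and 23825864 to 42391106 for βIgf1rKD. Levels are given as CPM, which is the count scaled to library size, here after TMM scaling, and fold changes are those of βIgf1rKD over βIgf1r on the log2 scale with their standard errors. Igf1r itself stood at 46.9 to 60.9 CPM in βIgf1r and 46.9 to 57.9 CPM in βIgf1rKD mice, with a log2 fold change of −0.08 ± 0.11 (SE; adjusted p = 0.988). No reduction of Igf1r beyond the error was thus seen in these libraries. The whole-gene count also includes exons outside the floxed part and cells other than β-cells, and the part of these was not tested. The share of 8 β-cell markers in a library was 16.1% to 22.3% for βIgf1r and 10.2% to 22.0% for βIgf1rKD, and that of 12 acinar markers was 2.46% to 18.1% and 5.19% to 20.2%. Each of the 12 acinar markers was higher in βIgf1rKD mice, with a median log2 fold change of 0.84 and none at an unadjusted p under 0.05 by edgeR. All 10 endothelial markers tested were lower in βIgf1rKD mice, with a summed level of 415 to 522 CPM against 368 to 408 CPM. Of these, 5 had an unadjusted p under 0.05 by edgeR, where 4.12% of all genes did. Groups without overlap were found for 4 of them, against 2.22% of all genes. Of the 8 β-cell markers 4 were higher and 4 lower, and only Ins1, which was lower, had an unadjusted p under 0.05 by edgeR. In bulk samples fewer cells of a type and less RNA per cell cannot be told apart.

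No gene of the family differed between the groups at an adjusted p under 0.05. Of the 10 genes, 7 passed the filter on low counts, of which 4 were higher and 3 lower in βIgf1rKD islets, with a median log2 fold change of 0.04 against 0.01 over the 15474 genes tested. The count past the adjusted threshold was 0 of 7 by edgeR's quasi-likelihood test, by DESeq2 and by limma-voom. Over all genes the share called was 0% by edgeR, while DESeq2 called 8 genes and limma-voom called 1. At an unadjusted p under 0.05 only Esr1 was called by edgeR among the 7, where 4.12% of all genes tested were called in either direction and 2.23% were called as higher in βIgf1rKD. None of the 7 had groups without overlap, against 2.22% of all genes.

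**Figure D1:**
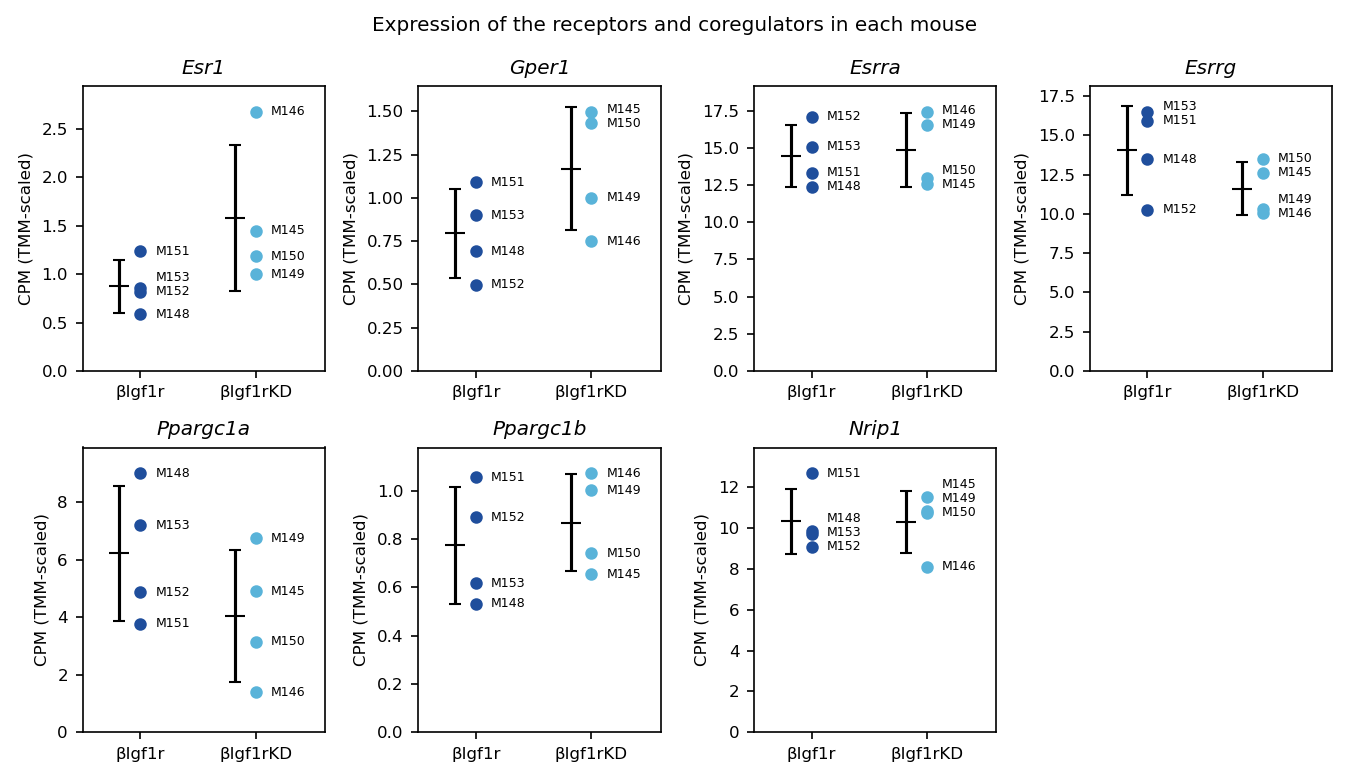
Expression in CPM, TMM-scaled, of the 7 tested genes in islets of each mouse (points with mouse numbers; dark blue βIgf1r, light blue βIgf1rKD), with the mean and SD of the 4 mice of a group beside the points. The 2 groups overlap in every panel, and M146 has the highest Esr1 (2.68 CPM) and the lowest Ppargc1a (1.39 CPM) of the 8 mice.

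Levels between genes were compared per kilobase of merged exons. Esrra was the most abundant at 3.34 ± 0.484 CPM per kilobase (SD over the 8 mice), and Esrrg followed at 2.07 ± 0.407. Esrra and Esrrg thus stood above the estrogen receptors, of which Gper1 reached 0.387 ± 0.138 and Esr1 0.0897 ± 0.0473. Among the coregulators the mean level of Nrip1 was 0.899 ± 0.125 CPM per kilobase. Ppargc1a lay at 0.779 ± 0.370, which did not differ from Nrip1 beyond the spread, and Ppargc1b lay at 0.206 ± 0.0531. The lowest levels were those of Greb1 (0.0192 ± 0.0147), Esrrb (0.00730 ± 0.00442) and Esr2 (0.00518 ± 0.00807 CPM per kilobase), and these 3 neighbours did not differ beyond their spread. With the length of the longest transcript in place of merged exons the order was the same, but Nrip1 and Ppargc1a then differed by more than their spread and Ppargc1b and Esr1 did not.

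**Figure D2:**
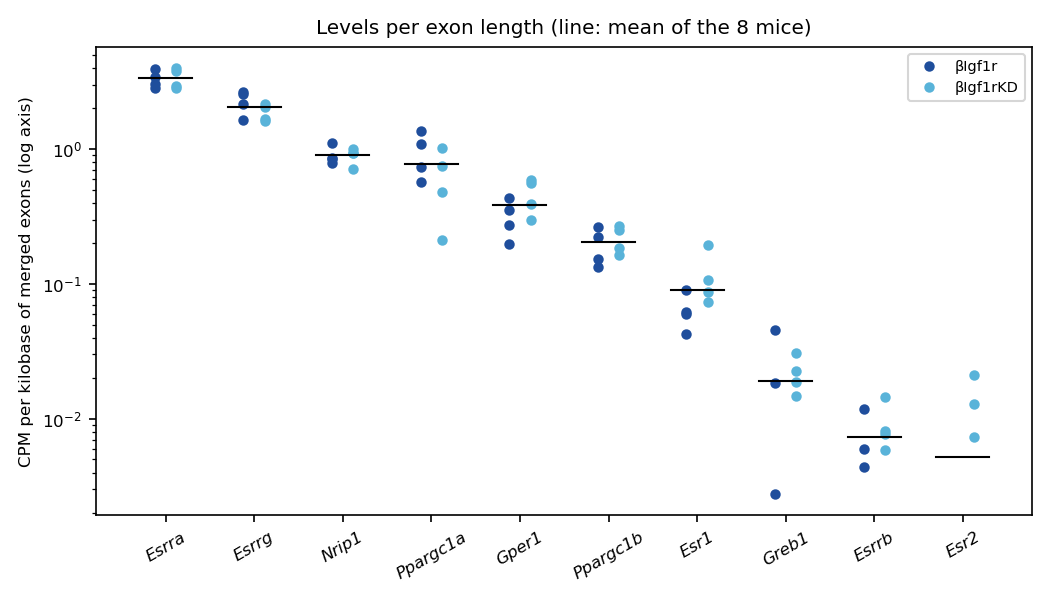
CPM per kilobase of merged exons on a log axis for the 10 genes, ordered by the mean of the 8 mice (line), with a point per mouse in dark blue (βIgf1r) or light blue (βIgf1rKD). The 7 values of 0, of which 5 are of Esr2, are not drawn, and the mean falls from 3.34 for Esrra to 0.00518 for Esr2.

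Esr1 (ENSMUSG00000019768; chr10:4611593-5005614 on GRCm38, plus strand) encodes ERα. Its level in βIgf1r islets was 0.586 CPM in M148, 1.24 in M151, 0.819 in M152 and 0.853 in M153. In βIgf1rKD islets it was 1.45 CPM in M145, 2.68 in M146, 1.001 in M149 and 1.18 in M150. M146 was the highest of all mice, and the groups overlapped because M151 lay above M149 and M150. The means were 0.874 ± 0.270 and 1.58 ± 0.756 CPM (SD, n = 4 each), from 18 to 34 and 23 to 75 counts per mouse. The log2 fold change was 0.86 ± 0.37 (SE), with an unadjusted p of 0.0432 and an adjusted p of 0.987 by edgeR. Without M146 it was 0.47, with an unadjusted p of 0.164, and limma-voom gave 0.81 with an unadjusted p of 0.0511. The unadjusted p was also above 0.05 without M148, M152, M153 or M145.

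Cell type marker scores were the mean z-score of log2 CPM over a marker list. In M146 that of the β-cell markers was 1.02, the highest of the 8 mice, while that of fibroblasts, stellate cells and pericytes was −1.61, the lowest. By share of counts M146 was extreme in neither list, with 21.99% against 22.3% in M148 and 0.0132% against 0.0129% in M145. Other mice were extreme in other scores, such as M148 in the acinar (−1.60) and M151 in the α-cell score (1.66). The part of cell composition in the Esr1 level of M146 was not tested. The endothelial score was lower in every βIgf1rKD mouse than in any βIgf1r mouse, so that it is nearly collinear with the groups. With it as covariate the log2 fold change of Esr1 was −0.18 ± 0.73 (SE), and with the acinar score as covariate it was 1.03 ± 0.38.

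The Xist transcript, which is made from the inactive X chromosome in female cells, differed between mice within each group. Xist stood at 6.71, 402, 2.39 and 2.04 CPM in the βIgf1r mice M148, M151, M152 and M153. It stood at 411, 270, 1.22 and 338 CPM in the βIgf1rKD mice M145, M146, M149 and M150. High values were thus found in 1 βIgf1r mouse and 3 βIgf1rKD mice, and these 4 mice were the 4 with the highest Esr1. With log2 Xist as a continuous covariate the log2 fold change of Esr1 was 0.59 ± 0.36, with an unadjusted p of 0.142, and 0 of the 7 genes were called at an unadjusted p under 0.05 where 7.39% of all genes were. No sex was assigned to any mouse, and the part of sex in the Esr1 level was not tested.

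**Figure D3:**
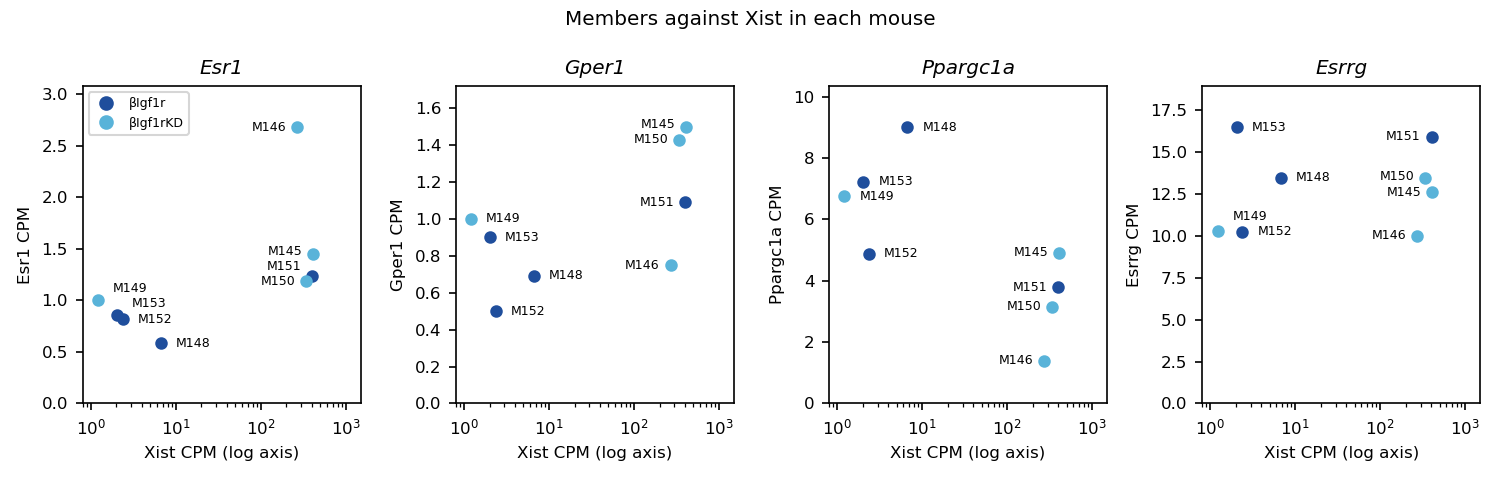
CPM of Esr1, Gper1, Ppargc1a and Esrrg (linear axes from 0) against CPM of Xist (log axis) in each mouse, in dark blue for βIgf1r and light blue for βIgf1rKD. The 4 mice with Xist between 270 and 411 CPM hold the 4 highest Esr1 values, and only M151 among them is a βIgf1r mouse.

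Gper1 (ENSMUSG00000053647; chr5:139423151-139427800, plus strand), the membrane receptor, stood at 0.692 CPM in M148, 1.09 in M151, 0.498 in M152 and 0.901 in M153. In βIgf1rKD islets the values were 1.497 CPM in M145, 0.750 in M146, 1.001 in M149 and 1.43 in M150. M145 and M150 were above all βIgf1r mice, and the other two βIgf1rKD mice were within their range. The log2 fold change was 0.56 ± 0.33 (SE; unadjusted p = 0.121, adjusted p = 0.987), from 14 to 58 counts per mouse. Within a mouse the log2 ratio of Esr1 to Gper1 had a mean of 0.14 ± 0.42 in βIgf1r and 0.38 ± 0.98 in βIgf1rKD islets. Its largest value was 1.84 in M146, and without M146 the difference of the means was −0.25 in place of 0.23.

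Esr2 (ENSMUSG00000021055; chr12:76120419-76177259, minus strand), which encodes ERβ, was at the limit of detection and was not tested. It had 0 counts in each of the 4 βIgf1r mice. This allows up to 0.0283 CPM over the group of 105859698 counts, for counting error only and without the TMM scaling of the other levels. In the βIgf1rKD mice it had 0 counts in M145, 2 in M146, 1 in M149 and 1 in M150. All of these lie under the floor of 3 counts per library, so that no fold is given.

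Esrra and Esrrg had the most counts of the receptors. Esrra (ENSMUSG00000024955; chr19:6910977-6921813, minus strand), which encodes ERRα, stood at 12.4 CPM in M148, 13.3 in M151, 17.1 in M152 and 15.1 in M153. In βIgf1rKD islets the values were 12.5 CPM in M145, 17.4 in M146, 16.5 in M149 and 12.97 in M150. The groups had almost the same range, with means of 14.5 ± 2.07 and 14.9 ± 2.47 CPM (SD, n = 4 each) and a log2 fold change of 0.04 ± 0.14 (SE; adjusted p = 0.992).

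Esrrg (ENSMUSG00000026610; chr1:187608791-188214885, plus strand) was at 13.5 CPM in M148, 15.9 in M151, 10.3 in M152 and 16.5 in M153. In βIgf1rKD islets it was at 12.6 CPM in M145, 10.03 in M146, 10.3 in M149 and 13.5 in M150. Of the βIgf1r mice, M152 was the only one within the lower part of the βIgf1rKD range. The means were 14.0 ± 2.84 and 11.6 ± 1.70 CPM, and the log2 fold change was −0.27 ± 0.17 (SE; unadjusted p = 0.134, adjusted p = 0.987). Without M152 it was −0.39 with an unadjusted p of 0.0195 by edgeR. Over all genes, 1094 of the 15474 tested had an unadjusted p under 0.05 without M152, against 637 with all mice. The groups no longer overlapped without M152, the mouse that had made them overlap, and M148 and M150 both stood at 13.5 CPM. The share of all genes without overlap is not given for this setting. With Xist as covariate the log2 fold change of Esrrg was −0.36 ± 0.17 (unadjusted p = 0.0668).

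The log2 ratio of Esrrg to Esrra within a mouse was 0.12, 0.26, −0.74 and 0.13 in M148, M151, M152 and M153. It was 0.01, −0.80, −0.68 and 0.05 in M145, M146, M149 and M150. The values fell into a set near 0 and a set near −0.7, each with mice of both groups, and the low set comprised M152, M146 and M149. Group means were −0.06 ± 0.46 and −0.35 ± 0.45, and their difference of −0.30 was −0.15 without M146, −0.19 without M149 or M151 and −0.52 without M152. Esrrb (ENSMUSG00000021255; chr12:86361117-86521628, plus strand), which encodes the ERR known from pluripotent stem cells, had 0 to 2 counts per mouse, 4 in all in βIgf1r and 6 in βIgf1rKD islets, and was not tested.

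Ppargc1a (ENSMUSG00000029167; chr5:51454250-51567726, minus strand) encodes PGC-1α, the inducible coactivator of the ERRs, and varied more between mice than any other of the 7 genes. Its promoter is shown because cAMP signalling is known to induce the gene. The 250 bases before its start (chr5:51567726-51567975, minus strand, GRCm38.p6, RefSeq) are printed 5′ to 3′ in the sense of the gene, with capitals for the cAMP response element half-site TGACG on the opposite strand, 49 to 45 bases before the start.
Ppargc1a: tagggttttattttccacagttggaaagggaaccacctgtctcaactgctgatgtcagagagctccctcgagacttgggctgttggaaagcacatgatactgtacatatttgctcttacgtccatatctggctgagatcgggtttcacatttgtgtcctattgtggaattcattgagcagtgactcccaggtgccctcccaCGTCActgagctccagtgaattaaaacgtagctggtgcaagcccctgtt
TGACG, searched on both strands, occurred in 17.8% of 32851 promoters of this length and in 3 of the 16 promoters of the family. These belonged to 3 of the 9 genes of the family with a promoter in the RefSeq table, namely Ppargc1a, Esr2 and Esrrb.

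The level of Ppargc1a was 8.997 CPM in M148, 3.78 in M151, 4.88 in M152 and 7.20 in M153. In βIgf1rKD islets it was 4.91 CPM in M145, 1.39 in M146, 6.75 in M149 and 3.16 in M150. The highest mouse was 6.46 times the lowest, and the within-group SD of 0.79 in log2 CPM was larger than that of 94.1% of the genes tested. The 2 groups overlapped widely, with means of 6.22 ± 2.34 and 4.05 ± 2.30 CPM (SD, n = 4 each) and 39 to 338 counts per mouse. The log2 fold change was −0.63 ± 0.44 (SE; unadjusted p = 0.180, adjusted p = 0.987). M146, M150 and M151, which were among the 4 mice with high Xist, had the 3 lowest values, and with Xist as covariate the log2 fold change was −0.32 ± 0.40. Leaving out M149 gave −0.99 with an unadjusted p of 0.0477 by edgeR, where 580 of all 15474 genes tested had an unadjusted p under 0.05. Leaving out M146 gave −0.34. With the endothelial score as covariate it was 0.65 ± 0.89.

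Ppargc1b (ENSMUSG00000033871), which encodes PGC-1β and lies on chr18, stood at 0.532, 1.06, 0.890 and 0.616 CPM in M148, M151, M152 and M153. In M145, M146, M149 and M150 it stood at 0.655, 1.07, 1.001 and 0.740 CPM. The groups covered the same range, and the log2 fold change was 0.17 ± 0.31 (SE; adjusted p = 0.988) from 13 to 30 counts per mouse. The log2 ratio of Ppargc1b to Ppargc1a ranged from −4.08 in M148 to −0.38 in M146, with group means of −2.98 ± 1.02 in βIgf1r and −2.03 ± 1.16 in βIgf1rKD islets. The difference of 0.95 was smaller than either SD, and it was 0.40 without M146 and 0.58 without M148.

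Nrip1 (ENSMUSG00000048490; chr16:76287400-76373827, minus strand) encodes RIP140, a corepressor of nuclear receptors that counteracts PGC-1α at many metabolic genes. Its level was 9.82 CPM in M148, 12.7 in M151, 9.08 in M152 and 9.72 in M153. In βIgf1rKD islets it was 11.5 CPM in M145, 8.11 in M146, 10.8 in M149 and 10.7 in M150. The means were equal to 3 digits, 10.3 ± 1.59 and 10.3 ± 1.495 CPM, with a log2 fold change of −0.01 ± 0.15 (SE; adjusted p = 0.9996). The log2 ratio of Nrip1 to Ppargc1a ranged from 0.13 in M148 to 2.54 in M146, with means of 0.80 ± 0.70 in βIgf1r and 1.55 ± 0.79 in βIgf1rKD islets. The difference of 0.75 lay between the SDs of the groups, and it was 0.42 without M146 and 1.07 without M151.

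**Figure D4:**
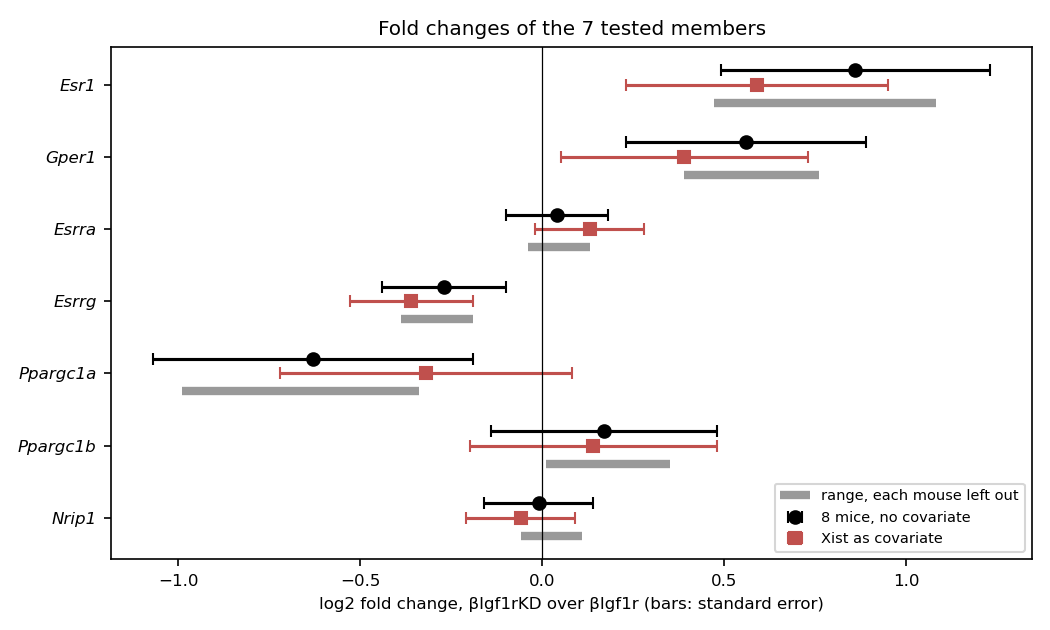
Log2 fold change of βIgf1rKD over βIgf1r for the 7 tested genes with its standard error, from 8 mice without covariate (black circles) and with Xist as covariate (red squares), and the range of the estimate when each mouse is left out in turn (grey bars). Esr1 moves from 0.86 to 0.59 and Ppargc1a from −0.63 to −0.32 with Xist as covariate.

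Greb1 (ENSMUSG00000036523; chr12:16670615-16800886, minus strand), a classical target gene of ERα in breast cancer cells and a cofactor of that receptor, was near the limit of detection. Its counts were 1, 12, 5 and 0 in M148, M151, M152 and M153 and 3, 5, 5 and 12 in M145, M146, M149 and M150. The highest counts were in 1 mouse of each group, M151 and M150, and the gene did not pass the filter. A promoter of Greb1 is shown because it alone of the 16 promoters searched held the estrogen response element half-site AGGTCA. These came from 9 genes of the family, since Ppargc1b had no promoter in the RefSeq table. The 250 bases before the start (chr12:16800887-16801136, minus strand, GRCm38.p6, RefSeq) are printed in the sense of the gene, with capitals for the half-site on the opposite strand, 88 to 83 bases before the start.
Greb1: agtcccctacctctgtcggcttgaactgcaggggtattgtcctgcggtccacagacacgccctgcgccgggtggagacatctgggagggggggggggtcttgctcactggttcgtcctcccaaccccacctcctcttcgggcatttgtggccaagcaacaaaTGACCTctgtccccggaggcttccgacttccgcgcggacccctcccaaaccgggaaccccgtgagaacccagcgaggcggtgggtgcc
AGGTCA, searched on both strands, occurred in 14.0% of the 32851 promoters and in 1 of the 16 promoters of the family. The ERR response element TCAAGGTCA, which contains it, occurred in 0.387% and in none of the 16 promoters of the family, and the full palindrome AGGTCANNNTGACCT occurred in 0.0213% and in none of them. These matches describe the letters of the windows and are not measurements of binding.

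Genes around the receptors were then examined in 5 lists. Of their 97 genes tested, leaving out the family itself, 53 were higher and 44 lower in βIgf1rKD islets. None was called at an adjusted p under 0.05 by edgeR, and 2 (2.06%) had an unadjusted p under 0.05, against the 4.12% of all genes. DESeq2 gave 4 at an unadjusted p, where 4.53% of all genes were called, and limma-voom gave 1, where 3.65% were. No gene of the lists had groups without overlap.

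Genes that respond to estrogen in other tissues numbered 30, of which 24 were tested, with 15 higher, 9 lower and a median log2 fold change of 0.05. Only Myc, a growth-promoting transcription factor gene, had an unadjusted p under 0.05 among them, with a log2 fold change of 1.0 ± 0.39 by edgeR (unadjusted p = 0.0294, adjusted p = 0.987). It stood at 3.14 to 3.98 CPM in βIgf1r mice and at 11.1, 2.93, 10.8 and 4.39 CPM in M145, M146, M149 and M150, so that 2 βIgf1rKD mice stood high and M146 lay below all βIgf1r mice. M145 and M149 had the highest shares of acinar markers, 18.1% and 20.2% of their counts, and M152 with 18.1% had a Myc level of 3.60 CPM. The part of cell composition in the Myc level was not tested. With the acinar score as covariate the log2 fold change of Myc was 0.48 ± 0.42 (unadjusted p = 0.284), with the endothelial score it was 0.56 ± 0.90, and limma-voom gave 0.71 (unadjusted p = 0.133). The unadjusted p was also above 0.05 without M148, M151, M152, M145 or M149. Krt19, a keratin that also stood in the list of duct markers, had a log2 fold change of 1.30 ± 0.78, which was −0.20 without M149 at 25.6 CPM. Cxcl12, a chemokine that estrogen induces, had −0.50 ± 0.29, and the receptor tyrosine kinase gene Ret had −0.10 ± 0.09. Pgr, which encodes the progesterone receptor and is a standard readout of ERα activity, had 1 to 14 counts per mouse and was not tested.

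Of 27 ERR and PGC-1 target genes tested, 15 were higher and 12 lower, with a median log2 fold change of 0.00 and none at an unadjusted p under 0.05. Citrate synthase, encoded by Cs, had the smallest p, with means of 64.1 ± 2.34 and 72.5 ± 8.78 CPM and a log2 fold change of 0.18 ± 0.09 (unadjusted p = 0.0800). The isocitrate dehydrogenase subunit gene Idh3a had −0.10 ± 0.10. Log2 fold changes of 0.08 ± 0.08 for Tfam, the mitochondrial transcription factor, and 0.00 ± 0.21 for Cycs, cytochrome c, were within their errors, and Cpt1b, which imports fatty acids into mitochondria, had 0.43 ± 0.31.

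Pdk4, the pyruvate dehydrogenase kinase that ERRs and PGC-1α induce, varied the most of the named target genes. It stood at 9.21, 30.6, 5.87 and 8.10 CPM in M148, M151, M152 and M153 and at 19.2, 8.86, 5.70 and 24.2 CPM in M145, M146, M149 and M150. The 3 highest mice, M151, M150 and M145, were among the 4 with high Xist. The log2 fold change was 0.11 ± 0.58, and −0.45 ± 0.30 with Xist as covariate.

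Among 33 other coregulators tested, 17 were higher and 16 lower, with a median log2 fold change of 0.01. Pprc1, the third member of the PGC-1 family, had 22.6 ± 4.03 CPM in βIgf1r and 28.8 ± 4.21 CPM in βIgf1rKD islets. Its log2 fold change was 0.35 ± 0.15, with an unadjusted p of 0.0386 and an adjusted p of 0.987, and this unadjusted call was kept when M152 or M145 was left out but not with any other mouse left out. It was also lost with the acinar score (0.35 ± 0.17, unadjusted p = 0.0621) and with the endothelial score (0.57 ± 0.33, unadjusted p = 0.120) as covariate. Med1, the Mediator subunit that nuclear receptors contact, had 0.22 ± 0.11 (unadjusted p = 0.0644), and the histone demethylase gene Kdm1a had −0.15 ± 0.07 (unadjusted p = 0.0645). Cited1, a transcriptional coactivator, had −0.69 ± 0.42 from 2 to 17 counts per mouse.

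Of the other steroid receptors, Nr3c1 (glucocorticoid receptor) had a log2 fold change of −0.12 ± 0.10, and all 3 that were tested were lower without an unadjusted p under 0.05. Enzymes of estrogen synthesis and breakdown gave 10 tested genes, 6 higher and 4 lower, with a median of 0.09. Hsd17b1, which converts estrone into estradiol, stood at 0.519 ± 0.174 CPM in βIgf1r and 0.821 ± 0.220 CPM in βIgf1rKD islets, with a log2 fold change of 0.67 ± 0.33 (unadjusted p = 0.0735). Ugt1a6a had 0.27 ± 0.19, Hsd17b7 −0.21 ± 0.16 and Hsd17b12 −0.17 ± 0.13. Cyp19a1, which encodes aromatase, had 0 to 2 counts per mouse in both groups and was not tested.

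**Figure D5:**
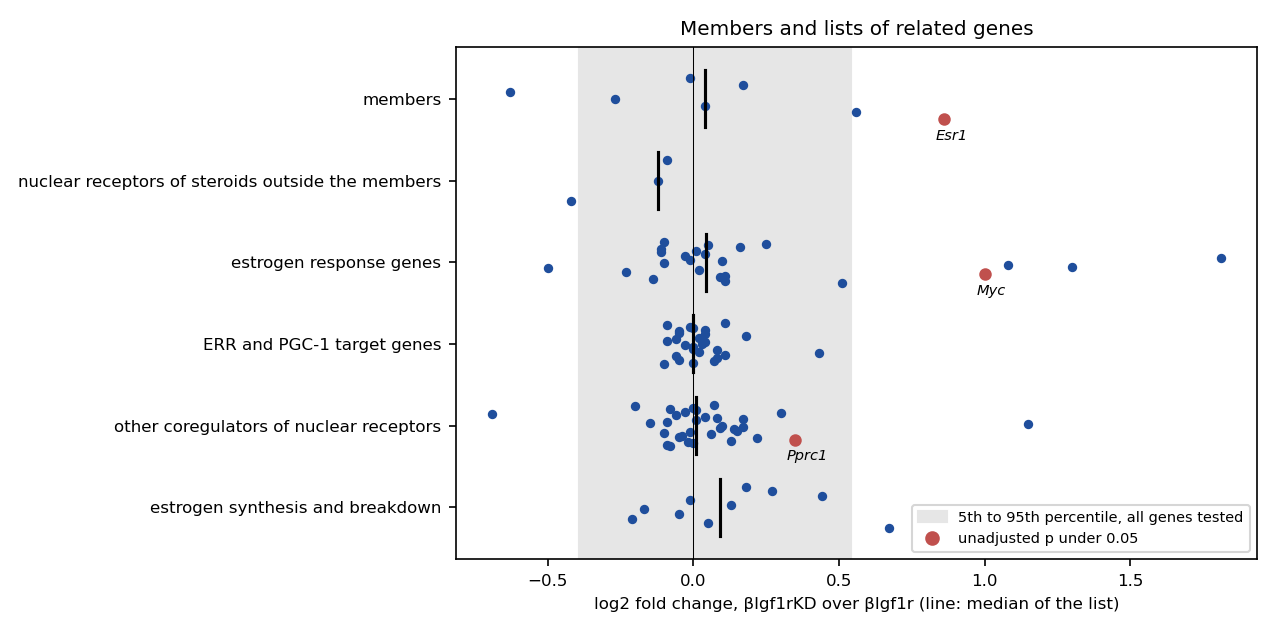
Log2 fold change of each tested gene (points) of the receptor family (members) and of the 5 lists of related genes, with the median of each list (line) and the range from the 5th to the 95th percentile of all genes tested (grey band). Red points are the genes with an unadjusted p under 0.05, which are Esr1, Myc and Pprc1.

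For each of the 7 tested genes the most similar genes across the 8 mice were taken by Pearson's r of log2 CPM, as a description that shares libraries and depth. Zfp651 (r = 0.984) and Dis3l (r = 0.982) followed Esr1 most closely, and Tmem37 (r = 0.986) and Saa3 (r = 0.957) followed Gper1. Mrpl2, a mitochondrial ribosomal protein gene, and Cbr1 were most like Esrra (r = 0.986 and 0.983), and Cltrn, which encodes the β-cell membrane protein collectrin, and Rab9b were most like Esrrg (r = 0.985 and 0.982). The closest to Ppargc1a were Tmem218 and Clca3a1 (r = 0.974 and 0.966), to Ppargc1b Myo9b and Sbno2 (r = 0.950 and 0.941), and to Nrip1 Rnd3 and Plek (r = 0.986 and 0.970). The highest r of a gene with any other had a median of 0.975 over all genes tested, with the 5th and 95th percentiles at 0.942 and 0.994, so that none of the 7 genes had a partner closer than is usual in 8 mice.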

How the data were processed

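Bulk RNA-seq was analysed in islets of 4 βIgf1r and 4 βIgf1rKD mice, grouped by the sample labels. The authors deposited an estimated count per Ensembl gene and mouse, not scaled between mice. The submitters' processing notes name fastp, kallisto and GRCm38, and the annotation release and the summing of transcripts are not given in the sources used here. Of 53012 identifiers 51906 matched a symbol, and coordinates are those of GENCODE M21. Estimated counts, of which 13.4% were not whole, were rounded. edgeR 4.0.16 kept 15474 genes with filterByExpr (minimum count 10, minimum total 15), and TMM factors and the two-sided quasi-likelihood test with Benjamini-Hochberg adjustment over all of them were used in R 4.3.3. Log2 CPM used a prior count of 2. P-values measure the spread between mice. Total counts of 21633925 to 42391106 leave counting error large for genes with few counts, such as Esr1.

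The genes, lists and tests were chosen with earlier results of these data known. Named genes were the 10 genes, Igf1r, in each list the 2 higher and 2 lower genes with the smallest p, Pgr, Cyp19a1, Pdk4, Cycs and Tfam, and the 2 genes most like each tested gene. Some genes that this rule names are not reported here. Alternatives were DESeq2 1.42.0, RLE size factors in edgeR, limma-voom (limma 3.58.1), no filter, other prior counts and lengths, Xist, acinar or endothelial covariates, and leaving out each mouse. The code was tested on simulated data. Plots were drawn with matplotlib 3.10.9.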

Additional observations from a re-analysis of the deposited data

Results flagged for a closer look

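Of 66 groups of 4 mice that were examined, 3 held a mouse far from the other three by Dixon's test, where chance gives about 1 in 20, or 3.3. In βIgf1r islets the log2 ratio of Esrrg to Esrra was −0.74 in M152, while the other mice lay between 0.12 and 0.26. In βIgf1rKD islets the log2 ratio of Esr1 to Gper1 was 1.84 in M146, while the others lay between −0.27 and 0.00. In βIgf1r islets the log2 CPM of Krt19 was 1.12 in M151, while the others lay between 1.93 and 2.06.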

How the results depend on the processing

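No alternative called any of the 7 genes at an adjusted p under 0.05. The number at an unadjusted p, 1 of 7, became 0 with limma-voom, with Xist and with the endothelial score as covariate, and ranged from 0 to 2 when a mouse was left out. Esr1 lost its call without M148, M152, M153, M145 or M146, Esrrg gained one without M152 and Ppargc1a without M149. The number without overlap ranged from 0 to 1 (Esr1 without M151, Esrrg without M152). In each case the mouse left out was the βIgf1r mouse that had made the groups overlap. The share of all genes without overlap is not given for fits with a mouse left out. In the lists of related genes, 2 genes at an unadjusted p (Myc and Pprc1) became 4 with DESeq2 and 7 with Xist, both still included, 1 with limma-voom (Pprc1), 1 with the acinar score (Ugt1a6a), 1 with the endothelial score (Mybl1, named after its value was seen), and 0 to 4 with a mouse left out. Igf1r changed sign with Xist (0.02). With the endothelial score, log2 fold changes changed sign to −0.18 for Esr1, 0.00 for Esrra, 0.65 for Ppargc1a, −0.64 for Ppargc1b, 0.23 for Hsd17b12 and Hsd17b7, 0.21 for Idh3a, −0.02 for Med1, −1.39 for Pdk4, 0.00 for Tfam and −0.15 for Ugt1a6a. Other reversals were of Esrra with the acinar score (0.00) and of Cycs with it (−0.12), with limma-voom (−0.01) and without the filter (0.00). These were of values near 0 in edgeR without covariate, 0.04 for Esrra and 0.00 for Cycs. Pdk4 moved further with Xist, from 0.11 ± 0.58 to −0.45 ± 0.30. With a mouse left out, ranges crossed 0 for Esrra (−0.04 to 0.13), Nrip1 (−0.06 to 0.11), Cycs (−0.13 to 0.15), Krt19 (−0.20 to 1.66) and Pdk4 (−0.26 to 0.91). The cause of these shifts was not tested. Over all genes, the number at an unadjusted p was 637, against 1143 with Xist, 1098 without the filter among 27738 genes, 372 with the acinar and 352 with the endothelial score, and 377 (without M148) to 1094 (without M152) with a mouse left out. No paired analysis was possible because no mouse number occurs in both groups. Esr2, Esrrb and Greb1 had too few counts to pass the filter. Without the filter Esr2 had an unadjusted p of 0.0467 and an adjusted p of 0.784, from 4 counts in all, while the p of Esrrb and Greb1 was 0.524 and 0.641.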
